A study of Mus musculus with 9 samples.

Results

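The 10 genes described here are 5 amino acid transporters of the plasma membrane (Slc7a5, Slc3a2, Slc1a5, Slc38a2 and Slc7a1) and 5 enzymes of asparagine, serine and one-carbon metabolism (Asns, Phgdh, Psat1, Shmt2 and Mthfd2). They were taken by name from the deposited counts of 55536 mouse genes, and all 10 were found, each under 1 Ensembl identifier. All 10 were among the 14684 genes that passed the filter on low counts. Messenger RNA was sequenced in 9 libraries of mouse splenic CD4+ T cells, in 3 groups of 3. The first group was given exosomes, small vesicles shed by cells, of bone-marrow-derived macrophages from ApoE-deficient mice (EKO exosomes). Exosomes of wild-type bone-marrow-derived macrophages (WT exosomes) went to the second group, and PBS, the vehicle, to the third. In every group the T cells came from wild-type male mice 6 to 12 weeks old and were activated with beads carrying anti-CD3 and anti-CD28 and with 5 ng/mL of murine IL-2 during the 18 h of treatment. Either kind of exosome was given at 2000000000 particles/mL. There was no group of unstimulated cells, so all values are those of T cells 18 h into activation. Replicates are described as biological in the study's design, and whether each had its own mouse is not stated. The p-values cover the variation among these cultures, which may be technical if mice were shared. They cover variation between exosome preparations only if the libraries of a group had separate preparations.

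An activated T cell must import amino acids before it can grow and divide. Slc7a5 and Slc3a2 are the light and heavy chains of the CD98 heterodimer, which brings in leucine and other large neutral amino acids. Slc1a5 (ASCT2) carries glutamine and other small neutral amino acids, Slc38a2 (SNAT2) carries small neutral amino acids together with sodium, and Slc7a1 (CAT-1) carries arginine and lysine. Asns makes asparagine from aspartate and glutamine. Phgdh and Psat1 catalyse early steps of serine synthesis from a glycolytic intermediate. In mitochondria, Shmt2 moves the one-carbon unit of serine onto folate and Mthfd2 oxidises the methylene folate so formed. One-carbon units feed purine and thymidylate synthesis. The transcription factor ATF4, whose translation rises when amino acids run short, is known to induce the 5 enzymes and also several of the transporters. MYC is known to raise many of the same genes in activated T cells.

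Of the 10 genes, Asns and Slc38a2 passed the test against PBS in both exosome groups, Asns lower and Slc38a2 higher. Their promoters are shown because these genes moved in opposite directions, and because a known ATF4 response element lies in the Asns promoter. Both windows run 5′ to 3′ on the gene's strand, from 250 bases before the RefSeq transcription start to 50 after it, on the minus strand of build GRCm38.p6. Capitals mark a match to the core of the C/EBP-ATF response element, TGATGNAA, searched on both strands.
Asns, chr6:7693160-7693459: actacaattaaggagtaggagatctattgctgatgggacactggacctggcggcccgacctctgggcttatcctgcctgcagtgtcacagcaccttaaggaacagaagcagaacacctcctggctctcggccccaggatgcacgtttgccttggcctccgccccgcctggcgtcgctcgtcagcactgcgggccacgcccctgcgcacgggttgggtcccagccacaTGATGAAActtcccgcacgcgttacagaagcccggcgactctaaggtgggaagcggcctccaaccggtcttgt
Slc38a2, chr15:96699679-96699978: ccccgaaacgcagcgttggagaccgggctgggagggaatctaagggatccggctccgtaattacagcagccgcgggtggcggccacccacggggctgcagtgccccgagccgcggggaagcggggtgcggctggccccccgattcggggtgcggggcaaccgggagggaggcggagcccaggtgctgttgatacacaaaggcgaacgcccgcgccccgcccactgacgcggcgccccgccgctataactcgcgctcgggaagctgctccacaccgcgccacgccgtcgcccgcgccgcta
In Asns the match begins 23 bases before the RefSeq start. The Asns gene in GENCODE M21, the annotation used for exon lengths, begins further upstream, at chr6:7693254, and so includes the match. The Slc38a2 window held no match. Sequence outside the windows, introns among it, was not searched, so this does not show that Slc38a2 lacks such an element. Whether the match bears on the opposite directions of these genes was not tested. The same letters occurred in 3.97% of 32851 RefSeq promoter windows of that length, and among the 8 of the 10 genes that have a window only Asns held them. The MYC E-box CACGTG occurred in 7.15% of all windows and in 0 of the windows of these 8 genes. A match is a run of letters and not a measured binding site.

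The 10 genes were strongly expressed in every library. Each had between 2961 and 34412 counts in a library, so none was at 0. Library totals ran from 25792975 to 32971791 counts, and CPM values are counts scaled to the library size after TMM normalization. Each EKO library stood apart from the other 8 on 1 of the first 3 principal components. EKO replicate 3 was at -61.6 on the first (18.8% of the variance), EKO replicate 1 at -54.0 on the second (15.7%) and EKO replicate 2 at -36.4 on the third (13.4%), where the other libraries ran from -12.9 to 25.3. Genes with at least 1 count numbered 19038 to 19518 in the EKO libraries and 19989 to 20568 in the others.

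Levels are compared between genes per kilobase of exon, with the union of annotated exons as the length. Shmt2 stood highest at a mean of 331.4 CPM per kb over the 9 libraries, the 61st highest level of the 14684 genes tested. Slc7a5 followed at 156.1 CPM per kb, Slc1a5 at 142.9 and Psat1 at 132.4. In the middle of the order were Slc3a2 at 96.1, Mthfd2 at 82.2 and Phgdh at 65.0 CPM per kb. Slc38a2 at 44.5, Asns at 43.0 and Slc7a1 at 34.4 CPM per kb were the lowest of the 10. The ranges over libraries overlapped between Slc7a5 and Slc1a5, between Slc1a5 and Psat1, and between Slc38a2 and Asns. No other neighbours in the order overlapped. On this scale Slc38a2 and Asns stood in a different order with and without exosomes. That order depends on the lengths used, 8838 bases for Slc38a2 and 2735 for Asns. A union of exons can be longer than the transcript present, which would place a gene such as Slc38a2 or Slc7a1 (11530 bases) too low. In CPM, Slc38a2 was above Asns in every library, at 2.57 to 3.96 times. Slc38a2 averaged 45.8 ± 1.58 CPM per kb with EKO exosomes, 46.9 ± 1.48 with WT exosomes and 40.6 ± 1.59 with PBS (SD, n = 3 each). Asns averaged 41.1 ± 1.47 CPM per kb with EKO exosomes, 39.9 ± 0.684 with WT exosomes and 48.0 ± 1.36 with PBS (SD, n = 3 each).

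**Figure D1:**
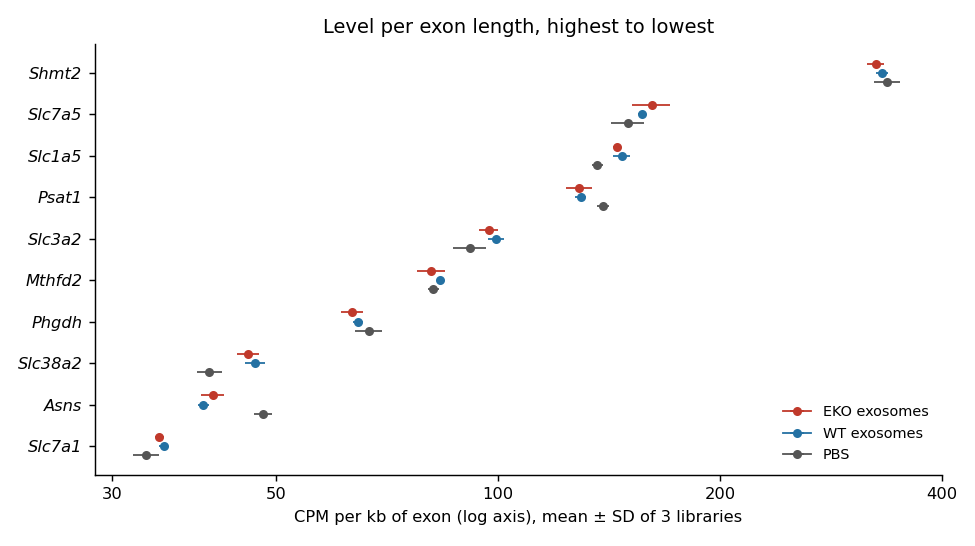
Mean level of each of the 10 genes in CPM per kb of exon (log axis) for T cells with EKO exosomes, WT exosomes or PBS, with bars for the SD of 3 libraries. The order runs from Shmt2, at a mean of 331.4 CPM per kb, to Slc7a1, at 34.4, and the group means lie close together for every gene.

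Slc38a2 was the transporter with the largest difference. It had 421.0, 400.4 and 394.3 CPM in replicates 1 to 3 with EKO exosomes, 418.9, 399.4 and 424.3 CPM with WT exosomes, and 353.3, 349.0 and 375.2 CPM with PBS. Every exosome library lay above every PBS library. Relative to PBS the log2 fold change was 0.17 ± 0.037 (SE, n = 3 each) with EKO exosomes (edgeR quasi-likelihood test, Benjamini-Hochberg adjusted p = 0.00379) and 0.21 ± 0.037 with WT exosomes (adjusted p = 0.000606 by the same test).

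Slc1a5, the glutamine carrier, had 597.0, 606.8 and 611.2 CPM with EKO exosomes, 619.2, 596.5 and 627.7 CPM with WT exosomes, and 559.5, 569.9 and 579.4 CPM with PBS. Again no exosome library overlapped the PBS libraries, but the difference was smaller. The log2 fold change against PBS was 0.09 ± 0.030 (SE) with EKO exosomes, which missed the threshold of 0.05 (edgeR adjusted p = 0.0967), and 0.11 ± 0.030 with WT exosomes, which passed it (edgeR adjusted p = 0.0296). Its call with WT exosomes was lost without PBS replicate 1, PBS replicate 2, WT replicate 1 or WT replicate 3 (edgeR adjusted p = 0.158, 0.110, 0.118 and 0.178).

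The CD98 chains did not pass the test in either comparison. Slc7a5 had 580.7, 577.3 and 640.7 CPM with EKO exosomes, 575.9, 578.8 and 587.7 CPM with WT exosomes, and 534.8, 544.7 and 588.4 CPM with PBS. PBS replicate 3 lay above all 3 WT libraries and above EKO replicates 1 and 2, so the groups overlapped. The log2 fold change was 0.11 with EKO exosomes (edgeR adjusted p = 0.0980) and 0.06 with WT exosomes (edgeR adjusted p = 0.465). Its partner Slc3a2 had 333.6, 341.4 and 353.4 CPM with EKO exosomes, 352.9, 341.1 and 358.6 CPM with WT exosomes, and 310.9, 316.4 and 342.4 CPM with PBS. Here too PBS replicate 3 was the highest of its group and the groups overlapped, with log2 fold changes of 0.08 with EKO exosomes (edgeR adjusted p = 0.243) and 0.12 with WT exosomes (edgeR adjusted p = 0.0765). Per kb of exon, Slc7a5 was 1.66, 1.61 and 1.73 times Slc3a2 with EKO exosomes, 1.55, 1.62 and 1.56 times with WT exosomes, and 1.64 times in each PBS library. This ratio was not tested.

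Slc7a1, the arginine carrier, had 397.0, 407.3 and 397.4 CPM with EKO exosomes, 410.2, 409.1 and 399.1 CPM with WT exosomes, and 367.1, 393.2 and 394.3 CPM with PBS. The exosome libraries lay above the PBS libraries, but only by a narrow margin over PBS replicates 2 and 3. Neither log2 fold change passed, at 0.06 with EKO exosomes (edgeR adjusted p = 0.422) and 0.08 with WT exosomes (edgeR adjusted p = 0.248).

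Among the enzymes Asns was the one called lower. It had 107.7, 114.7 and 114.6 CPM with EKO exosomes, 109.1, 110.9 and 107.2 CPM with WT exosomes, and 129.4, 135.6 and 128.9 CPM with PBS. The lowest PBS library lay well above the highest exosome library. The log2 fold change was -0.23 ± 0.048 (SE, n = 3 each) with EKO exosomes (edgeR adjusted p = 0.00379) and -0.27 ± 0.047 with WT exosomes (edgeR adjusted p = 0.000585).

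In fits that keep only 1 EKO library, a choice made after these values were seen, the direction of Slc38a2 and Asns was kept each time, but the calls were not. Slc38a2 was 0.22 (edgeR adjusted p = 0.00339) with EKO replicate 1 alone, 0.16 (edgeR adjusted p = 0.098) with EKO replicate 2 alone and 0.13 (edgeR adjusted p = 0.143) with EKO replicate 3 alone. Asns was -0.29 (edgeR adjusted p = 0.00564) with EKO replicate 1 alone, -0.20 (edgeR adjusted p = 0.159) with EKO replicate 2 alone and -0.20 (edgeR adjusted p = 0.0959) with EKO replicate 3 alone. Those fits assume that a lone library varies like the others. With any 1 library of the 9 left out, Slc38a2 and Asns were called in both comparisons in all 9 fits.

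Psat1, the aminotransferase of serine synthesis, had 523.4, 565.1 and 557.5 CPM with EKO exosomes, 542.0, 561.1 and 549.8 CPM with WT exosomes, and 601.7, 580.4 and 589.5 CPM with PBS. All exosome libraries were below all PBS libraries, yet neither comparison passed. The log2 fold change was -0.11 ± 0.032 (SE) with EKO exosomes (edgeR adjusted p = 0.0522) and -0.10 ± 0.032 with WT exosomes (edgeR adjusted p = 0.0758). Phgdh, the enzyme before it in the pathway, had 156.2, 163.8 and 153.2 CPM with EKO exosomes, 158.8, 159.7 and 163.7 CPM with WT exosomes, and 172.3, 167.7 and 158.7 CPM with PBS. Its groups overlapped, and its log2 fold changes of -0.08 with EKO exosomes (edgeR adjusted p = 0.404) and -0.05 with WT exosomes (edgeR adjusted p = 0.690) did not pass.

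The mitochondrial one-carbon enzymes overlapped between all groups. Shmt2 had 997.2, 994.3 and 1042.6 CPM with EKO exosomes, 1039.8, 1010.0 and 1044.2 CPM with WT exosomes, and 1003.5, 1052.9 and 1088.2 CPM with PBS. Mthfd2 had 283.7, 295.5 and 271.0 CPM with EKO exosomes, 288.8, 291.6 and 292.4 CPM with WT exosomes, and 283.5, 281.4 and 290.4 CPM with PBS. The log2 fold changes of Shmt2 were -0.05 with EKO exosomes (edgeR adjusted p = 0.403) and -0.02 with WT exosomes (edgeR adjusted p = 0.810). Those of Mthfd2 were -0.01 with EKO exosomes, with a 95% interval of -0.08 to 0.07, and 0.03 with WT exosomes, with an interval of -0.05 to 0.10 (edgeR adjusted p = 0.946 and 0.804).

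**Figure D2:**
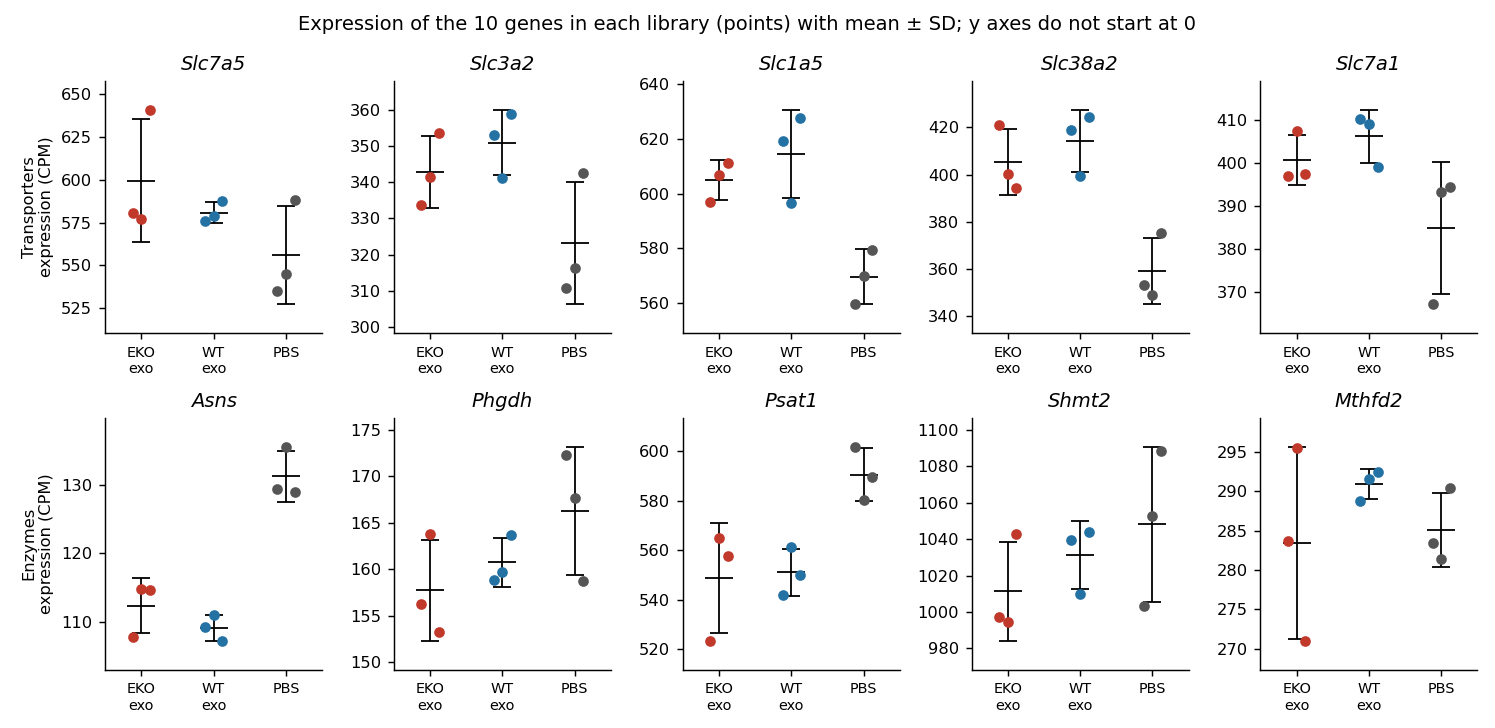
Expression in CPM of the 10 genes, transporters in the upper row and enzymes in the lower, in each of the 3 libraries with EKO exosomes, WT exosomes or PBS (points), with mean and SD. The y axes do not start at 0. The exosome libraries lie above all PBS libraries for Slc1a5, Slc38a2 and Slc7a1 and below them for Asns and Psat1.

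Read as classes, the 5 transporters leaned up and the 5 enzymes down or stayed near 0. With EKO exosomes against PBS, 1 of 5 transporters was called higher and 1 of 5 enzymes lower, so that 2 of 10 genes were called, where 5.08% of all 14684 genes were (2.21% higher and 2.87% lower). With WT exosomes against PBS, 2 of 5 transporters were called higher and 1 of 5 enzymes lower, where 4.97% of all genes were called (1.83% higher and 3.14% lower). Strongly expressed genes are called more often. Among the 2165 genes at or above the level of Asns, the lowest of the 10 in CPM, 15.6% were called with EKO exosomes (9.24% higher and 6.37% lower) and 14.6% with WT exosomes (7.39% higher and 7.25% lower). A count of 2 or 3 out of 10 is not read as particular to these genes. In either comparison the groups did not overlap for 5 of 10 genes: 3 transporters were above PBS and 2 enzymes below it. Without overlap were 20.5% of all genes with EKO exosomes (9.94% above PBS and 10.6% below) and 22.2% with WT exosomes (10.6% above and 11.6% below), and 36.2% and 38.7% of the 2165 strongly expressed genes in these comparisons. All 5 transporters had a log2 fold change above 0 in both comparisons, with medians of 0.09 with EKO exosomes and 0.11 with WT exosomes. The enzymes had 0 of 5 above 0 with EKO exosomes and 1 of 5 with WT exosomes, with medians of -0.08 and -0.05. Over all genes the median was 0.00 in both comparisons. No median was taken over the 2165 strongly expressed genes, so the lean is not read as particular to these classes. The comparisons share the PBS libraries, so what they have in common is not independent.

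**Figure D3:**
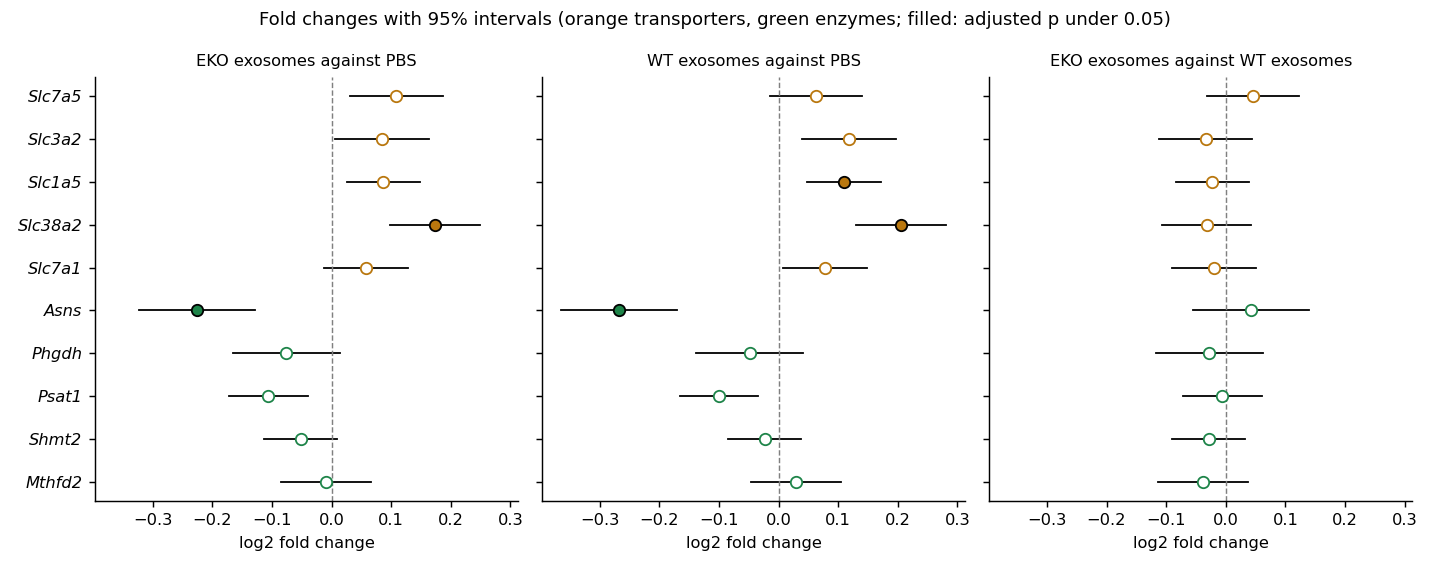
Log2 fold changes of the 10 genes with 95% intervals for EKO exosomes against PBS, WT exosomes against PBS, and EKO against WT exosomes, transporters in orange and enzymes in green. Filled points passed an adjusted p of 0.05, which Slc38a2 and Asns did in both comparisons with PBS, Slc1a5 with WT exosomes, and none of the 10 between the exosome groups.

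The balance of the classes can be read within a library, where scaling between libraries plays no part. The mean log2 CPM of the 5 transporters minus that of the 5 enzymes was 0.591, 0.529 and 0.594 with EKO exosomes, 0.588, 0.543 and 0.585 with WT exosomes, and 0.332, 0.357 and 0.436 with PBS. All 6 exosome libraries were above the 3 PBS libraries. Without Slc38a2 and Asns the same difference was 0.247, 0.210 and 0.297 with EKO exosomes, 0.250, 0.217 and 0.235 with WT exosomes, and 0.053, 0.105 and 0.160 with PBS, so the gap was smaller but the groups still did not overlap. The ratio of Slc38a2 to Asns in CPM was 3.91, 3.49 and 3.44 with EKO exosomes, 3.84, 3.60 and 3.96 with WT exosomes, and 2.73, 2.57 and 2.91 with PBS. Within pathway pairs the ratios moved little: Psat1 to Phgdh averaged 3.48 ± 0.146 with EKO exosomes, 3.43 ± 0.0790 with WT exosomes and 3.56 ± 0.138 with PBS, and Mthfd2 to Shmt2 averaged 0.281 ± 0.0189 with EKO exosomes, 0.282 ± 0.00579 with WT exosomes and 0.272 ± 0.00891 with PBS (SD, n = 3 each). These differences and ratios were formed after the single genes had been seen and were not tested. The genes were chosen with earlier results of these data known, so the lack of overlap is no separate support for a class shift.

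**Figure D4:**
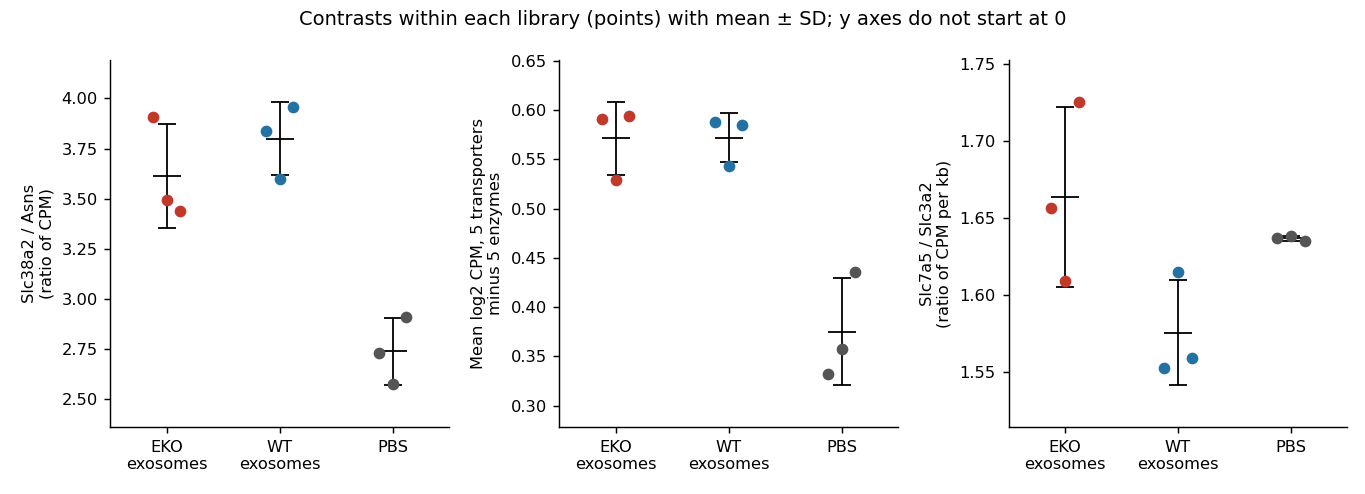
For each library with EKO exosomes, WT exosomes or PBS (points, with mean and SD of 3), the ratio of Slc38a2 to Asns in CPM, the mean log2 CPM of the transporters minus that of the enzymes, and the ratio of Slc7a5 to Slc3a2 in CPM per kb. The y axes do not start at 0. The first of these lies between 3.44 and 3.96 with either exosome and between 2.57 and 2.91 with PBS. The last is 1.64 in all PBS libraries, lies on both sides of that value with EKO exosomes (1.61 to 1.73) and below it with WT exosomes (1.55 to 1.62).

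No difference between EKO and WT exosomes passed the test in any of the 10 genes. In EKO against WT exosomes 0 of 10 were called by the edgeR quasi-likelihood test (adjusted p from 0.867 to 0.986), by DESeq2 or by limma voom, and 0 of 10 had an unadjusted p under 0.05 in edgeR. Over all genes 0.0341% were called by edgeR, and 0.139% of the 2165 strongly expressed ones. The groups overlapped for all 10 genes, where 11.8% of all genes and 15.6% of the strongly expressed ones did not overlap. Log2 fold changes ran from -0.04 for Mthfd2 to 0.05 for Slc7a5, and all 95% intervals lay between -0.118, for Phgdh, and 0.140, for Asns. For Slc38a2 the interval was -0.11 to 0.04 and for Asns -0.06 to 0.14. A difference between the exosomes as large as that of Asns against PBS therefore lies outside the interval of every one of the 10.

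Other genes of these pathways were taken as lists by function. For reference, 5.08% of all genes were called with EKO exosomes (2.21% higher) and 4.97% with WT exosomes (1.83% higher). Of 18 further plasma membrane amino acid transporters tested, 1 was called, Slc6a9, the glycine transporter GlyT1, and it was higher in both comparisons. It had 76.3, 84.1 and 71.3 CPM with EKO exosomes, 79.4, 72.3 and 81.2 CPM with WT exosomes, and 57.8, 65.9 and 68.3 CPM with PBS, and no exosome library overlapped the PBS libraries. The log2 fold change was 0.27 ± 0.070 with EKO exosomes (edgeR adjusted p = 0.0204) and 0.28 ± 0.070 with WT exosomes (edgeR adjusted p = 0.0153; SE, n = 3 each). The call with EKO exosomes was lost without EKO replicate 2, PBS replicate 1 or PBS replicate 2, and that with WT exosomes without PBS replicate 1, WT replicate 1 or WT replicate 3 (edgeR adjusted p from 0.0578 to 0.184). The median log2 fold change over the 18 was -0.09 with EKO exosomes and 0.03 with WT exosomes, with 7 and 11 of 18 above 0.

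Folate genes outside the 10 held larger falls than any of the enzymes above. Of 26 further serine, glycine and folate genes tested, 1 was called higher and 6 lower with EKO exosomes, and 1 higher and 3 lower with WT exosomes. Over all genes 2.21% were higher and 2.87% lower with EKO exosomes, and 1.83% higher and 3.14% lower with WT exosomes; among the 2165 strongly expressed genes the shares were 9.24% and 6.37% with EKO exosomes and 7.39% and 7.25% with WT exosomes. Tyms, Aldh1l2, Cth and Sfxn3, given below, lie under the level of those 2165 genes. The 7 calls with EKO exosomes became 2 without PBS replicate 2 and 4 without EKO replicate 2 or PBS replicate 1. Tyms, thymidylate synthase, had 49.2, 48.3 and 54.6 CPM with EKO exosomes, 49.6, 55.7 and 46.9 CPM with WT exosomes, and 69.5, 72.5 and 69.8 CPM with PBS. Its log2 fold change was -0.48 ± 0.071 with either exosome (SE, n = 3 each; edgeR adjusted p = 8.81e-05 with EKO and 6.60e-05 with WT exosomes), and it was called in all 9 fits that leave out 1 library.

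Aldh1l2, the mitochondrial enzyme that oxidises formyl folate, averaged 13.98 ± 2.07 CPM with EKO exosomes, 16.2 ± 3.02 CPM with WT exosomes and 20.6 ± 0.66 CPM with PBS (SD, n = 3 each). The log2 fold change was -0.56 with EKO exosomes (edgeR adjusted p = 0.00845; 0.0559 without PBS replicate 2) and -0.34 with WT exosomes, which did not pass (edgeR adjusted p = 0.147). Cth, which makes cysteine from cystathionine, was called lower with EKO exosomes at -0.37 (edgeR adjusted p = 0.0162) and with WT exosomes at -0.36 (edgeR adjusted p = 0.0168). The Cth call was lost without EKO replicate 2, PBS replicate 1 or PBS replicate 3 in the first comparison and without PBS replicate 1, PBS replicate 3, WT replicate 2 or WT replicate 3 in the second (edgeR adjusted p from 0.0588 to 0.0995). Sfxn3, a mitochondrial carrier that can import serine in human cells, was the gene called higher, with log2 fold changes of 0.26 with EKO exosomes (edgeR adjusted p = 0.0142; 0.128 without PBS replicate 2) and 0.32 with WT exosomes (edgeR adjusted p = 0.0021). Mthfd1, a cytosolic enzyme of one-carbon folate metabolism, and Mthfd1l, which releases formate in mitochondria, were each -0.12 with EKO exosomes and only just called (edgeR adjusted p = 0.0467 and 0.0489). Their calls were lost in 8 and 7 of the 9 fits that leave out 1 library: Mthfd1 was called only without PBS replicate 3, and Mthfd1l only without EKO replicate 1 or WT replicate 1.

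Purine synthesis, which uses one-carbon units, had 3 of 12 genes called lower with EKO exosomes and 2 of 12 with WT exosomes. None was called higher. In these comparisons 2.87% and 3.14% of all genes were lower, and 6.37% and 7.25% of the 2165 strongly expressed genes. The 3 calls with EKO exosomes became 1 without EKO replicate 1, PBS replicate 1 or PBS replicate 2. The 2 calls with WT exosomes became 0 without PBS replicate 2, WT replicate 2 or WT replicate 3, and 1 without PBS replicate 1, PBS replicate 3 or WT replicate 1. Pfas, an enzyme in the middle of the pathway, had 226.4, 232.0 and 252.9 CPM with EKO exosomes, 251.9, 243.8 and 253.6 CPM with WT exosomes, and 266.8, 283.5 and 282.6 CPM with PBS. Its log2 fold change was -0.23 with EKO exosomes (edgeR adjusted p = 0.000801) and -0.15 with WT exosomes (edgeR adjusted p = 0.0269). The call with WT exosomes did not hold without PBS replicate 2, PBS replicate 3 or any 1 of the WT libraries (edgeR adjusted p up to 0.159). Gmps, the last step to GMP, was -0.21 with EKO exosomes (edgeR adjusted p = 0.00899), lost without EKO replicate 1, PBS replicate 1 or PBS replicate 2 (edgeR adjusted p up to 0.0731). Gart, which uses formyl folate, was -0.12 with EKO exosomes (edgeR adjusted p = 0.0438) and was called only without EKO replicate 3 among the 9 fits that leave out 1 library. Paics, which catalyses steps between Gart and the end of the pathway, was -0.16 with WT exosomes (edgeR adjusted p = 0.0183), lost without PBS replicate 1, PBS replicate 2, WT replicate 2 or WT replicate 3 (edgeR adjusted p up to 0.149). In the other comparison these genes were not called: Gmps was -0.06 and Gart -0.11 with WT exosomes, and Paics -0.12 with EKO exosomes. The median of the 12 was -0.10 with EKO exosomes and -0.07 with WT exosomes, with 3 of 12 above 0 in each.

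The ATF4 and integrated stress response list, which leaves out the 10 genes, had 0 of 27 genes called in either comparison with PBS, in edgeR, DESeq2 or limma voom. As edgeR called only 5.08% of all genes with EKO and 4.97% with WT exosomes, 0 of 27 is not read as particular to this list. In edgeR, 2 and 4 of the 27 had an unadjusted p under 0.05 with EKO and WT exosomes. The same held for 2517 and 2317 of all 14684 genes, and the medians of the list were -0.01 and 0.01. With EKO replicate 2 left out, edgeR called 1 of the 27 with EKO exosomes, Atf3, a stress-induced transcription factor, named after its value was seen. Atf4 itself had 421.9, 431.1 and 435.9 CPM with EKO exosomes, 408.0, 416.6 and 423.4 CPM with WT exosomes, and 418.7, 399.9 and 421.9 CPM with PBS, and the groups overlapped. Its log2 fold change was 0.06, with a 95% interval of -0.01 to 0.12, with EKO exosomes and 0.01, with an interval of -0.06 to 0.08, with WT exosomes (edgeR adjusted p = 0.422 and 0.951). The amount of ATF4 protein, which is set largely by translation, was not measured. Of the 20 cytosolic aminoacyl-tRNA synthetases, several of them known ATF4 targets, 1 was called higher and 2 lower with EKO exosomes, and 0 higher and 1 lower with WT exosomes. The shares over all genes were 2.21% higher and 2.87% lower with EKO exosomes, and 1.83% higher and 3.14% lower with WT exosomes. Dars, for aspartate, was -0.17 with EKO exosomes (edgeR adjusted p = 0.0222) and -0.18 with WT exosomes (edgeR adjusted p = 0.0145). Eprs, for glutamate and proline, was -0.11 with EKO exosomes (edgeR adjusted p = 0.0478) and Wars, for tryptophan, 0.14 (edgeR adjusted p = 0.0405). With WT exosomes Eprs was -0.06 and Wars 0.14, neither called. The Dars calls were lost without EKO replicate 1, PBS replicate 1 or PBS replicate 2 in the first comparison and without PBS replicate 1, PBS replicate 2, WT replicate 1 or WT replicate 3 in the second (edgeR adjusted p up to 0.134). Eprs was called only without EKO replicate 2 or WT replicate 1, and Wars only without EKO replicate 3 or PBS replicate 3.

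Of 8 genes of the MYC network tested, 4 were called higher with EKO exosomes and 2 with WT exosomes, and none lower. In these comparisons 2.21% and 1.83% of all genes were higher, and 9.24% and 7.39% of the 2165 strongly expressed genes. Mxd4 and Mnt, given below, lie under the level of those 2165 genes. The 2 calls with WT exosomes became 0 without PBS replicate 1, PBS replicate 3 or WT replicate 1, and 1 without WT replicate 2 or WT replicate 3. The member below 0 was Mxd3, another repressor that pairs with Max, at -0.45 with EKO exosomes and -0.63 with WT exosomes, neither called (edgeR adjusted p = 0.334 and 0.138); it was named after its value was seen. Myc had 674.5, 714.3 and 714.0 CPM with EKO exosomes, 701.5, 700.1 and 677.6 CPM with WT exosomes, and 645.3, 653.5 and 615.4 CPM with PBS, so that all exosome libraries lay above all PBS libraries. Its log2 fold change was 0.14 ± 0.032 with EKO exosomes (edgeR adjusted p = 0.00891) and 0.12 ± 0.032 with WT exosomes (edgeR adjusted p = 0.0228; SE, n = 3 each). The first call was lost without EKO replicate 2 or PBS replicate 3 and the second without PBS replicate 1, PBS replicate 3, WT replicate 1 or WT replicate 2 (edgeR adjusted p from 0.0527 to 0.152). Max, the partner that MYC needs to bind DNA, was 0.18 with EKO exosomes (edgeR adjusted p = 0.0026) and 0.11, not called, with WT exosomes. The other called genes, Mxd4 and Mnt, encode repressors that compete with MYC for Max. Mxd4 was 0.46 with EKO exosomes (edgeR adjusted p = 0.00162) and 0.36 with WT exosomes (edgeR adjusted p = 0.0155). Mnt was 0.22 with EKO exosomes (edgeR adjusted p = 0.0203) and 0.13, not called, with WT exosomes. The Mxd4 call with WT exosomes was lost without PBS replicate 1, PBS replicate 3, WT replicate 1 or WT replicate 3, and the Mnt call without EKO replicate 3, PBS replicate 1 or PBS replicate 2 (edgeR adjusted p up to 0.132).

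Amino acid sensing upstream of mTORC1 had 0 of 31 genes called in either comparison with PBS, in edgeR, DESeq2 or limma voom. Of all genes, edgeR called 5.08% with EKO and 4.97% with WT exosomes, so the small counts of this paragraph are not read as particular to these lists. In edgeR, 6 and 5 of the 31 had an unadjusted p under 0.05 with EKO and WT exosomes. The same held for 2517 and 2317 of all 14684 genes, and the medians of the list were 0.05 and 0.04. With EKO replicate 3 left out, edgeR called 1 of the 31 with EKO exosomes, Depdc5, a subunit of the GATOR complex that restrains mTORC1, likewise named after its value was seen. Glutamine, aspartate and branched-chain metabolism had 16 genes tested, with 1 called higher and 1 lower with EKO exosomes and 1 lower with WT exosomes. Gls2, the glutaminase of liver type, averaged 8.27 ± 1.52 CPM with EKO exosomes, 6.86 ± 0.96 CPM with WT exosomes and 11.95 ± 1.53 CPM with PBS (SD, n = 3 each). Its log2 fold change with WT exosomes was -0.80 (edgeR adjusted p = 0.00228), called in all 9 fits that leave out 1 library. With EKO exosomes Gls2 was -0.53 and was not called. Bckdha, a subunit of the branched-chain keto acid dehydrogenase, was 0.38 with EKO exosomes (edgeR adjusted p = 0.0353), and 0.21 and not called without EKO replicate 3, its highest library (edgeR adjusted p = 0.29). Bcat2, the mitochondrial branched-chain aminotransferase, was -0.23 with EKO exosomes (edgeR adjusted p = 0.0397). With WT exosomes Bckdha was 0.30 and Bcat2 -0.16, neither called. Of the 9 fits that leave out 1 library, Bckdha was called only without EKO replicate 1 or EKO replicate 2, and Bcat2 only without EKO replicate 1. Among 10 arginine and polyamine genes tested, the 1 called was Odc1, ornithine decarboxylase, at -0.14 with WT exosomes (edgeR adjusted p = 0.0178), lost without PBS replicate 1, PBS replicate 2, WT replicate 1 or WT replicate 2 (edgeR adjusted p up to 0.0973). With EKO exosomes Odc1 was -0.09 and was not called. Between EKO and WT exosomes, edgeR called 0 genes of any of these lists. DESeq2 called 1 there, Mat2a, which makes S-adenosylmethionine, and from 0 to 2 genes a list had an unadjusted p under 0.05 in edgeR. In EKO against WT exosomes the log2 fold change of Atf4 was 0.05 (edgeR adjusted p = 0.829) and that of Myc 0.02 (edgeR adjusted p = 0.954).

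**Figure D5:**
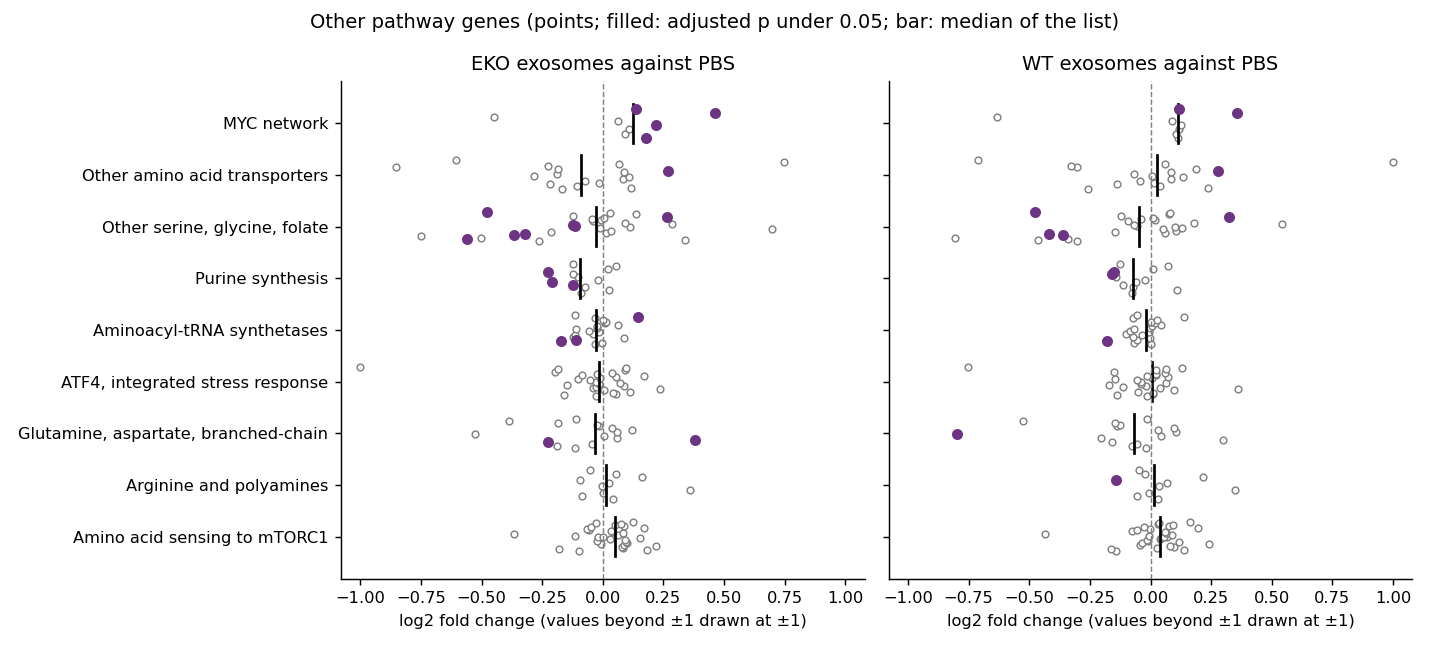
Log2 fold changes of the genes of each pathway list, without the 10 genes, for EKO exosomes against PBS and WT exosomes against PBS; filled points passed an adjusted p of 0.05, bars are list medians, and values beyond 1 in size are drawn at the edge. The MYC network lies mostly above 0 and purine synthesis mostly below, while no gene of the ATF4 list or of amino acid sensing is filled.

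Markers of other cells were low beside those of CD4+ T cells. The 6 CD4 T cell markers summed to 2582 to 2653 CPM with EKO exosomes, 2468 to 2535 CPM with WT exosomes and 2472 to 2542 CPM with PBS, and Cd3e (0.12) and Cd5 (0.11) were called higher with EKO exosomes on the log2 scale (edgeR adjusted p = 0.0361 and 0.0489), each in only 1 of the 9 fits that leave out 1 library: Cd3e without EKO replicate 2, and Cd5 without PBS replicate 3. The 8 macrophage markers, of which 4 could be tested, summed to 41.8 to 45.4 CPM with EKO exosomes, 39.5 to 48.9 CPM with WT exosomes and 35.5 to 43.0 CPM with PBS. Of these, Adgre1, Itgam, Mrc1 and Mertk were at 0 in some libraries. Csf1r, the macrophage growth factor receptor, had 67, 65 and 58 counts with EKO exosomes, 56, 43 and 26 with WT exosomes, and 25, 19 and 33 with PBS, and was called higher with EKO exosomes (log2 fold change 1.38; edgeR adjusted p = 0.0476), though only without EKO replicate 3 or WT replicate 3 among the 9 fits. It was not called by limma voom, without a filter on low counts, with a replicate block or with only the compared groups in the fit (adjusted p from 0.0583 to 0.0749), and DESeq2 gave it no adjusted p. The CD8 markers summed to 9.57 to 10.4 CPM with EKO exosomes, 8.31 to 10.2 CPM with WT exosomes and 11.2 to 12.3 CPM with PBS, B cell markers to at most 8.80 CPM, NK cell markers to at most 1.90 CPM and neutrophil markers to at most 8.31 CPM in any library. S100a9, a neutrophil gene, had 0, 0 and 18 counts with EKO exosomes, 0 in each library with WT exosomes and 1, 18 and 21 with PBS. It was called lower with WT exosomes (edgeR adjusted p = 0.0407), with no call in 6 of the 9 fits that leave out 1 library, those without any 1 of the PBS or WT libraries. The part of these cells in the results was not tested. In bulk RNA, fewer cells of a kind cannot be told apart from less RNA per cell.

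A few counts may be shared with other genes. Gm43890 overlaps Mthfd2 on the same strand and had 925 counts over the 9 libraries, 1.22% of those of Mthfd2. Phgdh has 8 near-identical copies in the annotation, which together held 245 counts, 0.572% of those of Phgdh. Genes on the opposite strand of Slc7a5, Psat1 and Shmt2 had 0, 0 and 8 counts. On build GRCm38, Slc38a2 (ENSMUSG00000022462) spans chr15:96687392-96699730 and Asns (ENSMUSG00000029752) chr6:7675169-7693254, both on the minus strand.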

How the data were processed

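Polyadenylated RNA of 9 libraries (RNeasy Mini kit, Universal Plus mRNA-Seq kit, per the labels' protocols) was given as whole-number counts per gene, deposited by the authors without normalization. Reads were aligned with STAR 2.7.5c to GRCm38, per the submitters' processing notes; which tool counted them, on which strand and with which annotation, is not given in the sources used here. Without a stated strand, reads of overlapping genes cannot be told apart. All 55536 identifiers matched GENCODE M21, the source of symbols, coordinates and exon lengths.

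Groups came from the sample titles. Chi-square per degree of freedom between the counts of libraries of 1 group was 5.12 to 9.23, well above sampling noise, and no library looked deposited more than once. In R 4.3.3, edgeR 4.0.16 kept genes by filterByExpr (minimum count 10, minimum total 15): 14684 genes with at least 99.92% of the counts. After TMM scaling, 1 quasi-likelihood model over the 3 groups was fitted to all 9 libraries without covariates (6 residual and 21.1 prior degrees of freedom), and Benjamini-Hochberg adjustment ran over all genes tested. A gene was called at an adjusted p under 0.05. Each SE is the size of the log2 fold change divided by the square root of its quasi-likelihood F statistic. The 95% intervals use that SE with a t quantile at 27.1 degrees of freedom. Both therefore restate the test and are not separate estimates. Alternatives were DESeq2 1.42.0, limma 3.58.1 voom, other scaling and filters, pairs of groups alone, a replicate block and leaving out libraries. The procedure was run on simulated counts with known fold changes. The recovery is not given here, so no power is claimed for the small changes of the 10 genes. Promoters are from RefSeq (GRCm38.p6), searched with Python 3.11.15. The minimum length of 500 bases and identity of 95% for near-identical copies was set after shorter repeat matches were seen.

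The members and lists were chosen with earlier results of these data known. Named are the 10 genes, Atf4 and Myc in every comparison, and up to 4 called genes per list and comparison by the smallest p; Cth with EKO exosomes, Mthfd1, Mthfd1l, Mat2a, Atf3, Depdc5 and Mxd3 fall outside that rule and were named after their values were seen. A called gene of the serine, glycine and folate list that the rule would name is not reported here.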

Additional observations from a re-analysis of the deposited data

How the results depend on the processing

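With EKO exosomes against PBS, 2 of the 10 genes were called, from 2 to 3 when 1 library was left out, and 5 by DESeq2 (adding Psat1, Slc1a5 and Slc7a5), which called 9.77% of the genes it tested. By limma voom and when genes under a mean of 5 CPM were dropped, 3 were called (adding Psat1). With only EKO replicate 3 kept 1 was called (Slc7a5), with only EKO replicate 2 kept 0, and with only EKO replicate 1 kept 3. With WT exosomes against PBS, 3 were called, from 2 to 4 with 1 library left out, 2 without a filter on low counts (Slc1a5 lost), and 5 (adding Psat1 and Slc3a2) by DESeq2, by limma voom, when genes under a mean of 5 CPM were dropped and with only the compared groups in the fit, where 8.85%, 5.48%, 9.7% and 7.6% of the genes tested were called. Between EKO and WT exosomes 0 were called under every alternative run. Over all genes, leaving out 1 library gave 375 to 687 calls in place of 746 with EKO exosomes, 399 to 870 in place of 730 with WT exosomes and 0 to 6 in place of 5 between them. The last count was 38 with DESeq2, 28 without a filter and 9 with the 5 CPM filter. A replicate block gave 614, 609 and 1 calls over all genes and 2, 3 and 0 among the 10. Same-numbered libraries showed no common deviation over the genes tested (correlation of deviations -0.028 to 0.017). That check weighs all genes alike and cannot exclude pairing, and the replicate numbers were not treated as pairs. Signs turned only for uncalled values: with 1 library left out, Mthfd2 with EKO exosomes ran from -0.043 to 0.022 (0.022 without EKO replicate 3, 0.002 without PBS replicate 3), Shmt2 with WT exosomes from -0.054 to 0.002 (without PBS replicate 3), and Atf4 with WT exosomes from -0.015 (without PBS replicate 2; -0.005 without WT replicate 3) to 0.023. Between EKO and WT exosomes, Slc7a5 ran from -0.005 (without EKO replicate 3) to 0.071, and Psat1 from -0.029 to 0.027 (without EKO replicate 1; 0.008 without WT replicate 2). The cause was not tested. With DESeq2 size factors in place of TMM the median of all genes was 0.0031 with EKO and 0.0050 with WT exosomes on the log2 scale, and no sign among the 10 turned under another scaling. The SE of the 10 was 0.030 to 0.048, and log2 fold changes near 0.1 lie at the edge of what passed. Among the pathway lists, calls changed by over 1.5 times with 1 library left out for further serine, glycine and folate genes with EKO exosomes (2 to 6 in place of 7), purine synthesis (1 to 3 in place of 3 with EKO, 0 to 3 in place of 2 with WT exosomes), tRNA synthetases (0 to 4 in place of 3 with EKO, 0 to 3 in place of 1 with WT exosomes), the MYC network with WT exosomes (0 to 2 in place of 2) and lists with 1 or 2 calls. The other settings gave 0 to 4 calls in place of 2 for glutamine, aspartate and branched-chain metabolism with EKO exosomes and 1 to 4 in place of 3 for tRNA synthetases there.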
